A study of Mus musculus with 17 samples.

Results

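Genes of iron storage, uptake, export, sensing and haem synthesis were followed in heart RNA-seq of mice that accumulate mtDNA mutations in the heart. The 10 genes were taken by name from a table of 56748 genes: *Fth1*, *Ftl1* and *Ncoa4* (storage), *Tfrc* and *Slc11a2* (uptake), *Slc40a1* and *Hamp* (export and its control), *Ireb2* and *Aco1* (sensing) and *Alas1* (haem synthesis). Hearts came from 8 control mice (Ctrl) and 9 Polg hMut mice (hMut), all aged 12 to 16 months and untreated, with 1 library per mouse. The hMut mice are *Polg* iMut/iMut; +/*Ckmm*-cre, in which cre driven by the muscle creatine kinase promoter removes a floxed wild-type *Polg* cDNA, so that a proofreading-deficient mtDNA polymerase is made. The promoter acts in cardiomyocytes and skeletal muscle, so other heart cells keep the wild-type polymerase. The labels call the other group only Ctrl, and its alleles are not further described there. The mutation itself cannot be read from a gene count, but *Polg* was counted in all 17 libraries, at 27.1 to 47.2 CPM (counts scaled to library size, on a common total) in Ctrl and 47.0 to 65.1 CPM in hMut, and its 3′ end overlaps *Fanci* on the opposite strand.

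Cells take up transferrin-bound iron through the transferrin receptor, keep the surplus in ferritin shells of heavy and light chains, and export it through ferroportin. Iron regulatory proteins, encoded by *Aco1* and *Ireb2*, bind short hairpins called iron-responsive elements when iron is scarce. In a 5′ UTR such a hairpin lets them block translation, as for the ferritins and ferroportin, and in the 3′ UTR of *Tfrc* it lets them keep the mRNA from decay. Ferritin is therefore controlled largely at a step that RNA counts do not read, whereas *Tfrc* mRNA itself rises when the proteins bind. Mitochondria use much of the iron of a heart for haem and iron-sulphur clusters, and the *Aco1* product changes from an RNA-binding protein to an aconitase when it holds such a cluster.

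The hairpins are shown because their place sets apart *Tfrc*, with matches in the 3′ UTR, from the members with a match in the 5′ UTR. The UTRs of GENCODE vM39 protein-coding transcripts (GRCm39) were searched on the transcript strand for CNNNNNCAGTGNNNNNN. The loop was not allowed to end in G, and the 5 bases on each side of it had to pair, with G-T pairs allowed. Matches lay in the 5′ UTR of *Fth1* (chr19:9960096-9960124, plus strand, first exon), *Ftl1* (chr7:45109203-45109231, minus strand, first exon) and *Slc40a1* (chr1:45964625-45964653, minus strand, first exon). *Tfrc* held 4 matches in its 3′ UTR, all in exon 18 of 18 on the plus strand, at chr16:32450037-32450065, chr16:32450416-32450444, chr16:32450481-32450509 and chr16:32450528-32450556. *Alas2*, the erythroid counterpart of *Alas1*, held 1 in its 5′ UTR on chromosome X, beginning at 149330454 and running across the junction of its first exons. No match was found in the searched UTRs of the other 6 members. A hairpin with another loop, another bulge or broken pairing would be missed by this pattern. The lack of a match therefore does not show that a member has no iron-responsive element. Of 21594 genes with a coding transcript, 36 (0.167%) held a match in a 5′ UTR and 124 (0.574%) in a 3′ UTR. The sites are written 5′ to 3′ as DNA, with the bulged C and the loop of 6 bases in capitals.
Fth1: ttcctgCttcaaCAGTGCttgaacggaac
Ftl1: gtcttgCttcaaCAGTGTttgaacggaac
Slc40a1: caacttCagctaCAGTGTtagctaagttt
Tfrc, most 5′ site: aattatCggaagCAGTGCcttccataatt
Tfrc, next site: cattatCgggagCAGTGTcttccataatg
Tfrc, next site: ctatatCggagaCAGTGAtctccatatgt
Tfrc, most 3′ site: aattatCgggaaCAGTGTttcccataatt
Alas2: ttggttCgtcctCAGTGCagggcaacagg

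Total counts lay between 32915159 and 46486964 per library. The summed level of 10 ventricular cardiomyocyte markers was 47640 to 57530 CPM in Ctrl and 35840 to 56280 CPM in hMut. Of 6 atrial markers, *Myl7* and *Sln* had at most 19 and 11 counts in any library, but the summed level of the 6 was 15.2 to 24.98 CPM in Ctrl and 13.9 to 64.8 CPM in hMut, with 7 of 9 hMut hearts above every Ctrl heart. Of the 4 tested, 1 (*Bmp10*, a growth factor gene) was called higher in edgeR and 3 had an unadjusted p under 0.05. In these bulk samples fewer cells of a type and less RNA per cell cannot be told apart. hMut 6 and hMut 9 stood apart, with the lowest cardiomyocyte sums (39050 and 35840 CPM) and the highest sums of 12 macrophage markers (1413 and 737.7 CPM, against 289.7 to 421.3 CPM in Ctrl and 361.6 to 464.6 CPM in the other 7 hMut hearts). They also had the highest sums of 7 fibroblast markers (1756 and 1378 CPM, against 860.1 to 1026 CPM in Ctrl), and hMut 6 had the highest sum of 10 lymphoid markers (73.5 CPM, against 2.10 to 49.4 CPM in Ctrl). All 12 macrophage markers had positive and all 10 cardiomyocyte markers negative log2 fold changes, though 0 of either list passed an adjusted p of 0.05 in edgeR (8 and 7 did at an unadjusted p of 0.05). Results that rest on these hearts are given with and without them.

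None of the iron genes changed between the groups beyond the adjusted threshold of edgeR's quasi-likelihood test. Of the 10 members, 9 had enough counts to be tested, 0 of them passed an adjusted p of 0.05, and 3 (*Alas1*, *Aco1* and *Ftl1*) had an unadjusted p under 0.05. Over all 16195 genes tested, 4.62% passed the adjusted threshold (3.48% higher and 1.14% lower in hMut) and 25.8% had an unadjusted p under 0.05. DESeq2 also called 0 of 9 at an adjusted p of 0.05, where it called 9.33% of all genes. Again 3 of the 9 had an unadjusted p under 0.05. Limma-voom with sample weights called 2 of 9, *Alas1* (adjusted p = 0.0258) and *Aco1* (adjusted p = 0.0407), both lower in hMut, where it called 12.8% of all genes. The levels of Ctrl and hMut hearts overlapped for all 9 tested members, against 0.605% of all tested genes whose groups did not overlap. The median log2 fold change of the 9 was −0.072, beside 0.00225 over all tested genes, with 6 negative and 3 positive.

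**Figure D1:**
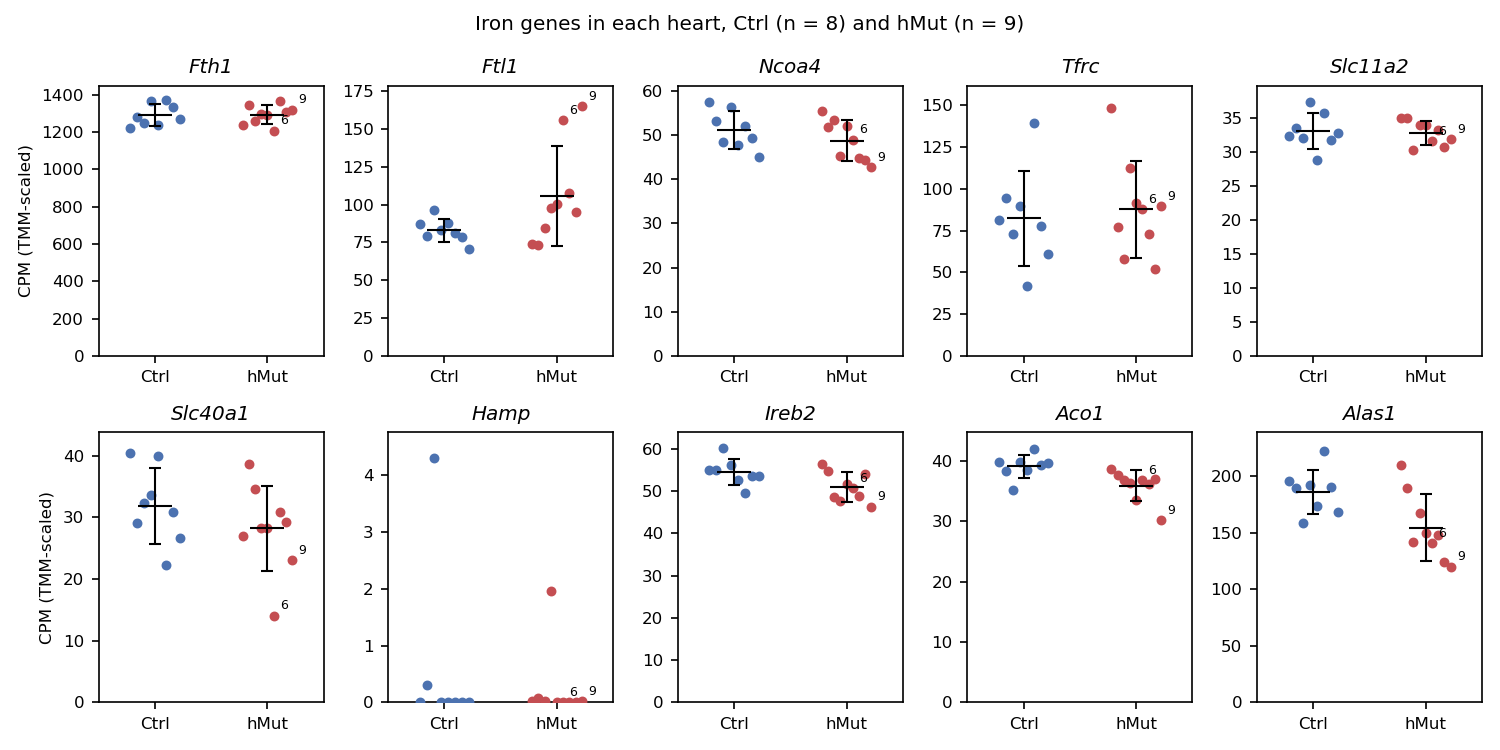
TMM-scaled CPM of the 10 iron genes in each of 8 Ctrl and 9 hMut hearts (points), with mean and SD as bars except for *Hamp*, and hMut 6 and 9 numbered. The groups overlap for every tested gene. *Ftl1* reaches 156 and 165 CPM in hMut 6 and 9, and 6 hMut hearts lie below every Ctrl heart for *Alas1*.

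Ferritin heavy chain, the ferroxidase subunit of the iron store, was by far the most abundant of the mRNAs and its difference between the groups had a narrow interval around 0. *Fth1* (ENSMUSG00000024661, chr19:9957962-9962462, plus strand) lay at 1221, 1275 and 1370 CPM (lowest, median and highest) in Ctrl and at 1208, 1297 and 1364 CPM in hMut. Neither group stood higher, and 1 hMut heart, hMut 6, lay below every Ctrl heart. The log2 fold change of hMut over Ctrl was 0.0024 (SE 0.042, 95% interval −0.0855 to 0.0903, edgeR adjusted p = 0.98), and its sign turned under other scalings.

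*Ftl1*, the light chain that helps the iron core form, varied more, above all among the hMut hearts. *Ftl1* (ENSMUSG00000050708, chr7:45107368-45109308, minus strand) lay at 70.6, 82.2 and 96.2 CPM in Ctrl and at 73.5, 98.1 and 165 CPM in hMut. Of the hMut hearts, 5 lay above every Ctrl heart, with hMut 6 at 156 CPM and hMut 9 at 165 CPM, while hMut 1 and hMut 2 lay within the Ctrl range at 73.8 and 73.5 CPM. The means were 83.0 ± 7.62 CPM (SD, n = 8) and 106 ± 33.1 CPM (SD, n = 9), a log2 fold change of 0.35 (SE 0.145, 95% interval 0.0486 to 0.657, edgeR adjusted p = 0.142). Without hMut 6 and hMut 9 it was 0.12 (edgeR adjusted p = 0.439). The macrophage, fibroblast and atrial marker sums were also highest in these hearts, and their part in the *Ftl1* values was not tested.

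The ratio of the ferritin mRNAs, as CPM per kilobase of annotated gene length, is given here as a description. It does not give the ratio of the protein chains. The annotated lengths were 1340 bases for *Ftl1* and 3469 for *Fth1*, and the ratio depends on them. Such a scale understates a gene whose annotation holds long rare exons. The level of *Ftl1* was 14.4% to 20% of that of *Fth1* in Ctrl (median 15.85%) and 14.1% to 33.4% in hMut (median 19.6%). It was highest in hMut 6 (33.4%) and hMut 9 (32.4%). *Ftl1-ps1* on chromosome 13, a near-identical copy that can take reads of *Ftl1*, had 2.03% to 3.12% of its counts in every library. Its own log2 fold change was 0.31 (SE 0.162, edgeR adjusted p = 0.228), so the split of reads between the copies leaves some uncertainty in *Ftl1*.

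*Ncoa4* encodes the receptor that carries ferritin into autophagosomes and so releases its iron. *Ncoa4* (ENSMUSG00000056234, chr14:31881822-31901812, plus strand) lay at 45.1, 50.7 and 57.5 CPM in Ctrl and at 42.7, 49.0 and 55.4 CPM in hMut. The ranges overlapped, with 3 hMut hearts below every Ctrl heart and 2 Ctrl hearts above every hMut heart. Its log2 fold change was −0.07 (SE 0.061, 95% interval −0.201 to 0.0567, edgeR adjusted p = 0.462).

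Relative to its mean, the transferrin receptor had the widest spread of the 9 tested members inside both groups. *Tfrc* (ENSMUSG00000022797, chr16:32427738-32451612, plus strand), whose 3′ UTR holds the 4 hairpins above, lay at 41.6, 79.5 and 140 CPM in Ctrl and at 52.1, 87.8 and 148 CPM in hMut. The highest hearts were Ctrl 6 and hMut 1, and hMut 6 and hMut 9 were near the middle of their group at 87.8 and 89.4 CPM. The log2 fold change was 0.09 (SE 0.212, 95% interval −0.352 to 0.538, edgeR adjusted p = 0.804), and it turned negative when Ctrl 5 (−0.0068) or hMut 1 (−0.037) was left out. With this spread the comparison could not exclude a change of the size seen for *Ftl1*.

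*Slc11a2* encodes DMT1, which moves ferrous iron across the endosomal membrane. *Slc11a2* (ENSMUSG00000023030, chr15:100285779-100322953, minus strand) lay at 28.8, 32.5 and 37.3 CPM in Ctrl and at 30.3, 33.2 and 34.97 CPM in hMut. The hMut hearts lay wholly inside the Ctrl range. The log2 fold change was −0.0094 (SE 0.049, 95% interval −0.113 to 0.0939, edgeR adjusted p = 0.921), with a sign that turned in some fits.

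Ferroportin, the only known iron exporter of mammalian cells, was lower in 7 of 9 hMut hearts than the Ctrl median, without passing the test. *Slc40a1* (ENSMUSG00000025993, chr1:45947228-45965683, minus strand) lay at 22.2, 31.6 and 40.4 CPM in Ctrl and at 14.1, 28.3 and 38.6 CPM in hMut. The lowest value of all was that of hMut 6, at 14.1 CPM, and the other 8 hMut hearts lay within the Ctrl range. The log2 fold change was −0.18 (SE 0.154, 95% interval −0.499 to 0.147, edgeR adjusted p = 0.473). Without hMut 6 it was −0.09, and without hMut 6 and hMut 9 it was −0.041 (edgeR adjusted p = 0.885). hMut 6 thus held the highest macrophage sum, the lowest *Slc40a1* and *Fth1* and the second highest *Ftl1* of the hMut group.

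Hepcidin, the peptide hormone that removes ferroportin from the cell surface, is made mainly by the liver. *Hamp* (ENSMUSG00000050440, chr7:30641793-30643457, minus strand) had 0 counts in 10 of 17 libraries and at most 3 counts in 14 of them, and was not tested. A count of 0 allows up to 3 counts, or 0.0676 to 0.0951 CPM in these libraries, for counting error only. The other 3 libraries were Ctrl 3 with 136 counts, hMut 4 with 82 and Ctrl 2 with 11, so that counts above the floor occurred in both groups.

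The 4 libraries with 3 or more *Hamp* counts were the 4 with the most counts of *Alb*, the hepatocyte gene for serum albumin. Ctrl 3 had 9151 *Alb* counts, hMut 4 had 3870, Ctrl 2 had 597 and hMut 2, with 3 *Hamp* counts, had 262. The other 13 libraries had 0 to 46. *Hamp* amounted to 1.49%, 2.12%, 1.84% and 1.15% of the *Alb* counts in these 4 libraries. *Hpx*, the liver-made haem carrier, had 362 and 164 counts in Ctrl 3 and hMut 4, 28 in both Ctrl 2 and hMut 2, and at most 10 elsewhere. The summed level of 8 hepatocyte markers was 1.07 to 412 CPM over Ctrl and 1.49 to 132 CPM over hMut, and its part in the *Hamp* counts was not tested. Leaving out the 4 libraries called 0 members with edgeR.

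**Figure D2:**
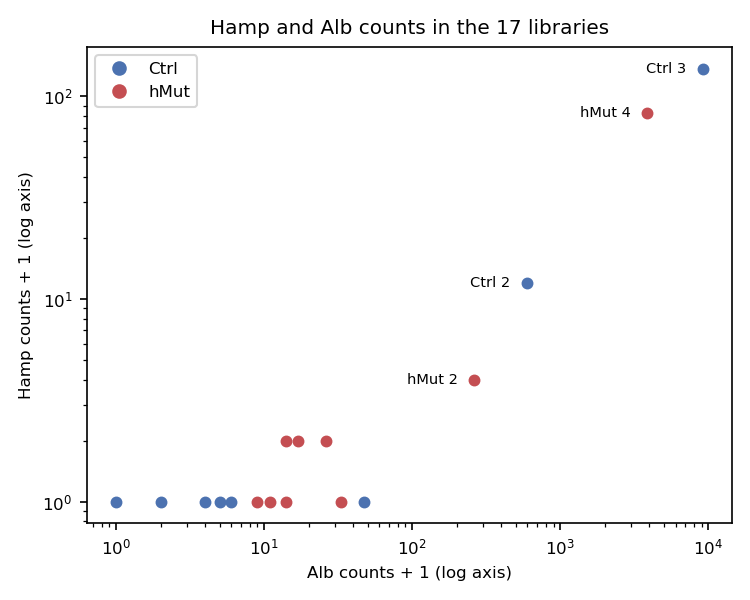
*Hamp* counts plus 1 against *Alb* counts plus 1 in the 17 libraries, both on log axes, with Ctrl in blue and hMut in red. The libraries with 3 or more *Hamp* counts (Ctrl 2, Ctrl 3, hMut 2 and hMut 4) are those with 262 or more *Alb* counts, and the other 13 have at most 46 *Alb* counts.

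Both mRNAs for iron regulatory proteins had small negative differences. *Aco1* (ENSMUSG00000028405, chr4:40143081-40198338, plus strand), which encodes IRP1, lay at 35.1, 39.5 and 42.0 CPM in Ctrl and at 30.2, 36.8 and 38.7 CPM in hMut. All 9 hMut hearts lay below the Ctrl median and 5 of 8 Ctrl hearts lay above every hMut heart, although hMut 5 and hMut 9 were the only hMut hearts below every Ctrl heart. The log2 fold change was −0.12 (SE 0.047, 95% interval −0.22 to −0.0228, unadjusted p = 0.0186, edgeR adjusted p = 0.125). Over the other alternatives of this test its adjusted p ranged from 0.0407, in limma-voom, to 0.271.

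*Ireb2* (ENSMUSG00000032293, chr9:54771073-54819814, plus strand), which encodes IRP2, lay at 49.5, 54.2 and 60.1 CPM in Ctrl and at 46.3, 50.7 and 56.3 CPM in hMut. Of the hMut hearts, 4 lay below every Ctrl heart. Its log2 fold change was −0.10 (SE 0.046, 95% interval −0.192 to 0.000859, unadjusted p = 0.0519, edgeR adjusted p = 0.197).

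*Alas1*, which encodes the rate-limiting enzyme of haem synthesis outside the erythroid line, had the smallest p of the members. *Alas1* (ENSMUSG00000032786, chr9:106110654-106125853, minus strand) lay at 158, 190 and 222 CPM in Ctrl and at 120, 148 and 210 CPM in hMut. Of the hMut hearts, 6 lay below every Ctrl heart, whereas hMut 1, at 210 CPM, was above all but 1 of the Ctrl hearts. The means were 186 ± 19.6 CPM (SD, n = 8) and 154 ± 29.5 CPM (SD, n = 9), a log2 fold change of −0.27 (SE 0.0999, 95% interval −0.478 to −0.0592, unadjusted p = 0.0148, edgeR adjusted p = 0.113). Leaving out hMut 1 brought it past the threshold at −0.33 (edgeR adjusted p = 0.0304). Without hMut 6 and hMut 9 it was −0.20 (edgeR adjusted p = 0.258). All 10 cardiomyocyte markers also had negative log2 fold changes (median −0.237). Their part in the *Alas1*, *Aco1* and *Ireb2* values was not tested.

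**Figure D3:**
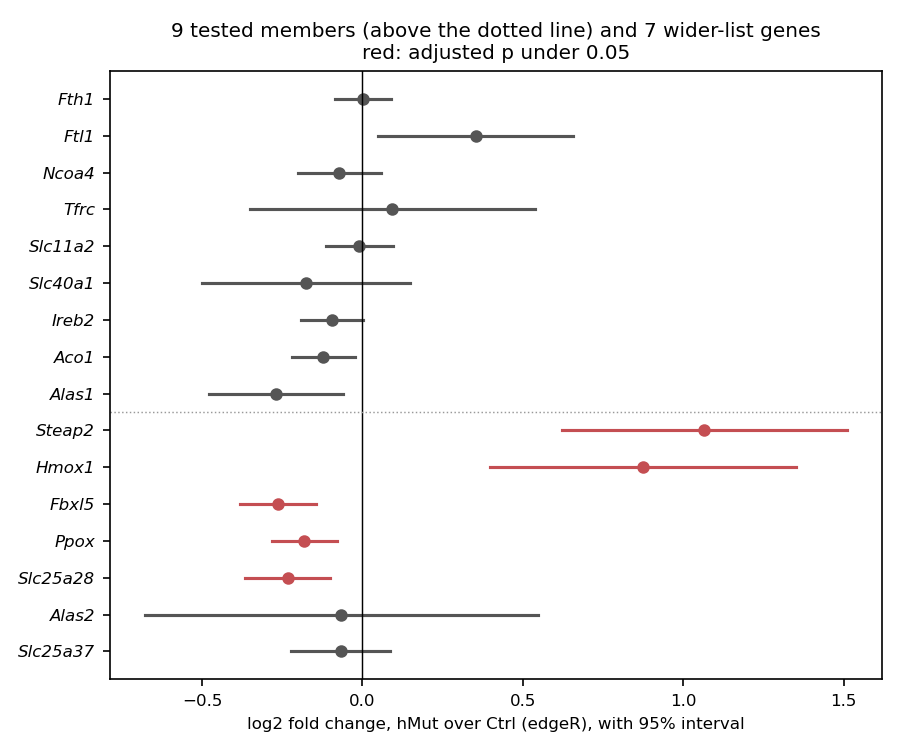
Log2 fold change of hMut over Ctrl with its 95% interval from edgeR for the 9 tested members and 7 genes of the wider iron list, with genes past an adjusted p of 0.05 in red. Among the members the intervals of *Ftl1*, *Aco1* and *Alas1* leave out 0, but 0 of 9 pass after adjustment.

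In the Ctrl hearts the members differed widely in level per kilobase of annotated gene length, a scale that understates genes whose annotation holds long rare exons. *Fth1* came first at 372 ± 17 CPM per kilobase (SD, n = 8), followed by *Ftl1* at 61.9 ± 5.69, *Alas1* at 30.1 ± 3.18 and *Tfrc* at 13.3 ± 4.62. *Aco1* at 8.69 ± 0.431 overlapped with *Tfrc* in range. *Ireb2*, *Ncoa4* and *Slc11a2* followed at 5.74 ± 0.322, 5.47 ± 0.461 and 5.20 ± 0.411 with overlapping ranges, and *Slc40a1* was lower still at 3.54 ± 0.689. *Hamp* was at 0 in 6 of the 8 Ctrl hearts.

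Relations with RNA measures linked to the mtDNA defect were read across the 9 hMut hearts alone, from log2 CPM. The mtDNA mutation load of each heart was not used. The measures were the mean of the 13 mtDNA-encoded OXPHOS mRNAs, of which 9 were lower in hMut past the adjusted threshold, and *Mthfd2*, a mitochondrial folate-cycle gene that is induced when respiration fails. *Mthfd2* lay at 2.44 to 5.41 CPM in Ctrl and at 20.5 to 115 CPM in hMut. Of 20 relations, with 10 members against each measure, 5 had an unadjusted p under 0.05 for Pearson's r in exact two-sided permutation tests, 0 passed after adjustment over the 20, and 1 passed for Spearman's rho. The 1 relation was that of *Ftl1* with *Mthfd2*.

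*Ftl1* was higher in hMut hearts with more *Mthfd2*, over 9 hearts, at a Pearson r of 0.84 (p = 0.00534 by exact permutation, 0.105 after adjustment) and a Spearman rho of 0.93 (p = 0.00075 by exact permutation, 0.015 after adjustment). Without hMut 1 and hMut 2, the hearts farthest from the median of *Mthfd2*, r was 0.83. Without hMut 6 and hMut 9, which stood apart, 7 hearts gave r = 0.83 (p = 0.0173 by exact permutation, 0.345 after adjustment) with rho = 0.86 (p = 0.0238 by exact permutation, 0.238 after adjustment). With these 7 hearts the relation did not pass the adjusted threshold, and r was 0.415 when hMut 1 and hMut 2 were left out as well, so that among these 7 it rests on those hearts. The points share library depth and scaling, and the labels give no batch within which to repeat the test.

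**Figure D4:**
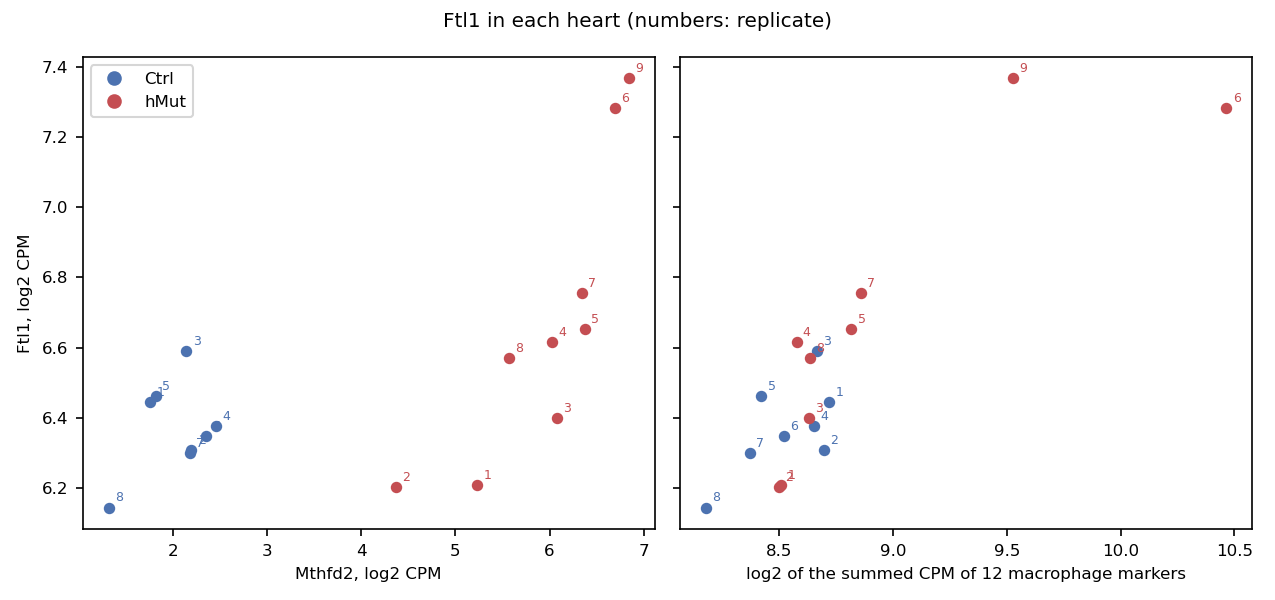
*Ftl1* in log2 CPM for each heart against *Mthfd2* in log2 CPM (left) and against the log2 of the summed CPM of 12 macrophage markers (right), with Ctrl in blue, hMut in red and the replicate number beside each point. hMut 6 and 9 are highest for *Ftl1* in both panels, and hMut 1 and 2 are lowest of the hMut hearts for *Ftl1* and *Mthfd2*.

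The other 4 relations with an unadjusted p under 0.05 did not pass adjustment. *Fth1* (r = 0.77, exact permutation p = 0.0126, adjusted p = 0.105) and *Slc40a1* (r = 0.80, exact permutation p = 0.0211, adjusted p = 0.105) were lower in hearts with less mtDNA-encoded mRNA. Without hMut 2 and hMut 6, the hearts farthest from the median, r was 0.44 and −0.030. That of *Fth1* thus weakened and that of *Slc40a1* rests on those hearts. For *Fth1* rho was 0.82 (exact permutation p = 0.0108, adjusted p = 0.0718). For *Slc40a1* rho was 0.57 (exact permutation p = 0.121, adjusted p = 0.332). Without hMut 6 and hMut 9, r was 0.585 for *Fth1* (exact permutation p = 0.173, adjusted p = 0.696). It was 0.408 for *Slc40a1* (exact permutation p = 0.356, adjusted p = 0.742). *Ireb2* (r = −0.75, exact permutation p = 0.0163, adjusted p = 0.105) and *Alas1* (r = −0.69, exact permutation p = 0.041, adjusted p = 0.164) were lower in hearts with more *Mthfd2*. Without hMut 1 and hMut 2, r was −0.53 and −0.12. For each of them rho was −0.67 over the 9 hearts (exact permutation p = 0.0589, adjusted p = 0.236). Without hMut 6 and hMut 9, r was −0.725 for *Ireb2* (exact permutation p = 0.0623, adjusted p = 0.623). It was −0.568 for *Alas1* (exact permutation p = 0.185, adjusted p = 0.696). With *Mthfd2*, *Aco1* had r = −0.65 (p = 0.0662 by exact permutation, 0.221 after adjustment) but rho = −0.85 (p = 0.00607 by exact permutation, 0.0607 after adjustment). *Hamp*, at or under 3 counts in 8 of the 9 hearts, was part of the family, but its values cannot be read as levels.

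The genes whose log2 CPM ran most like a member's over all 17 hearts were taken by Pearson's r, as a description, since the hearts share groups, depth and scaling. For *Alas1* they were *Fhl2* (r = 0.92), *Fbxw7* (r = 0.92) and *Cul1* (r = 0.90). For *Aco1* they were *Anxa6* (r = 0.91), *Gpr155* (r = 0.91) and *Mamstr* (r = 0.89). For *Ftl1* they were *Dlg4* (r = 0.96), *Casp8* (r = 0.96) and *Igfbp7* (r = 0.96).

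Around the members, a wider list of 62 iron and haem genes was read in the same fit. Of its 53 tested genes, 5 passed the adjusted threshold, 2 higher (3.48% of all tested genes were called higher) and 3 lower in hMut (1.14% of all tested genes). In edgeR 17 of the 53 had an unadjusted p under 0.05, beside 25.8% of all tested genes. Its median log2 fold change was −0.0127, beside 0.00225 over all tested genes, with 26 positive and 27 negative. The genes that rose were *Steap2* and *Hmox1*, and those that fell were *Fbxl5*, *Ppox* and *Slc25a28*.

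Among 10 genes of iron uptake and reduction, 7 were tested and 1 rose. *Steap2*, a metalloreductase of endosomes that reduces ferric iron, lay at 0.710, 1.12 and 1.68 CPM in Ctrl and at 1.40, 2.17 and 4.10 CPM in hMut, with 7 of 9 hMut hearts above every Ctrl heart. Its log2 fold change was 1.06 (SE 0.211, edgeR adjusted p = 0.00742), and it stayed past the threshold without any 1 library. *Steap2* rested on 25 to 53 counts per Ctrl library and 51 to 182 per hMut library. None of 3 tested genes of storage and chaperones and none of 2 of export and oxidation passed edgeR's threshold. In the former group *Pcbp1*, a chaperone that delivers iron to ferritin, came closest at 0.11 (SE 0.038, edgeR adjusted p = 0.0849).

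Both tested genes of the sensing group had negative differences and 1 fell. *Fbxl5*, the iron-binding ubiquitin ligase subunit that directs IRP2 to degradation, lay at 51.2, 55.0 and 62.0 CPM in Ctrl and at 40.1, 45.8 and 56.0 CPM in hMut. hMut 2 was the only hMut heart inside the Ctrl range. Its log2 fold change was −0.26 (SE 0.057, edgeR adjusted p = 0.0137), past the threshold without any 1 library. The cardiomyocyte markers were also negative in hMut, and their part in the *Fbxl5* values was not tested. *Bst1* overlaps *Fbxl5* on the opposite strand, with a mean of 59.4 counts against 1907, and the strand setting of the counting is not stated. Of 9 tested genes of hepcidin control 0 passed edgeR's threshold, and *Smad7*, a target of the BMP signal, was at 0.34 (SE 0.129, unadjusted p = 0.0176, edgeR adjusted p = 0.122).

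All 12 genes of haem synthesis had negative log2 fold changes, with a median of −0.149 beside 0.00225 over all tested genes, and 1 fell. *Ppox*, which encodes the mitochondrial enzyme before ferrochelatase, lay at 14.5, 16.1 and 17.5 CPM in Ctrl and at 12.7, 14.3 and 15.2 CPM in hMut, and its log2 fold change was −0.18 (SE 0.048, edgeR adjusted p = 0.0402). *Ppox* overlaps *B4galt3* on the opposite strand, with means of 569 and 336 counts, so reads of the pair may not have been told apart. The call of *Ppox* was lost in 11 of 17 fits that left out 1 library (all but Ctrl 3 and 4 and hMut 1, 2, 4 and 8), at edgeR adjusted p of 0.0508 to 0.0788. *Abcb10*, a mitochondrial transporter that steadies haem synthesis (−0.25, SE 0.083, edgeR adjusted p = 0.0789), and *Fech*, which inserts iron into the porphyrin ring (−0.18, SE 0.066, edgeR adjusted p = 0.108), did not pass. *Alas2* lay at 9.73 to 49.8 CPM in Ctrl and at 12.3 to 41.9 CPM in hMut, with a log2 fold change of −0.07 (SE 0.292, edgeR adjusted p = 0.904) whose sign turned in some fits. The summed level of 8 erythroid markers, which include *Alas2*, was 249.6 to 1381 CPM in Ctrl and 281.8 to 1091 CPM in hMut, and so spread widely inside both groups. The log2 fold changes of the cardiomyocyte markers were also negative in hMut, and their part in the haem gene values was not tested.

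**Figure D5:**
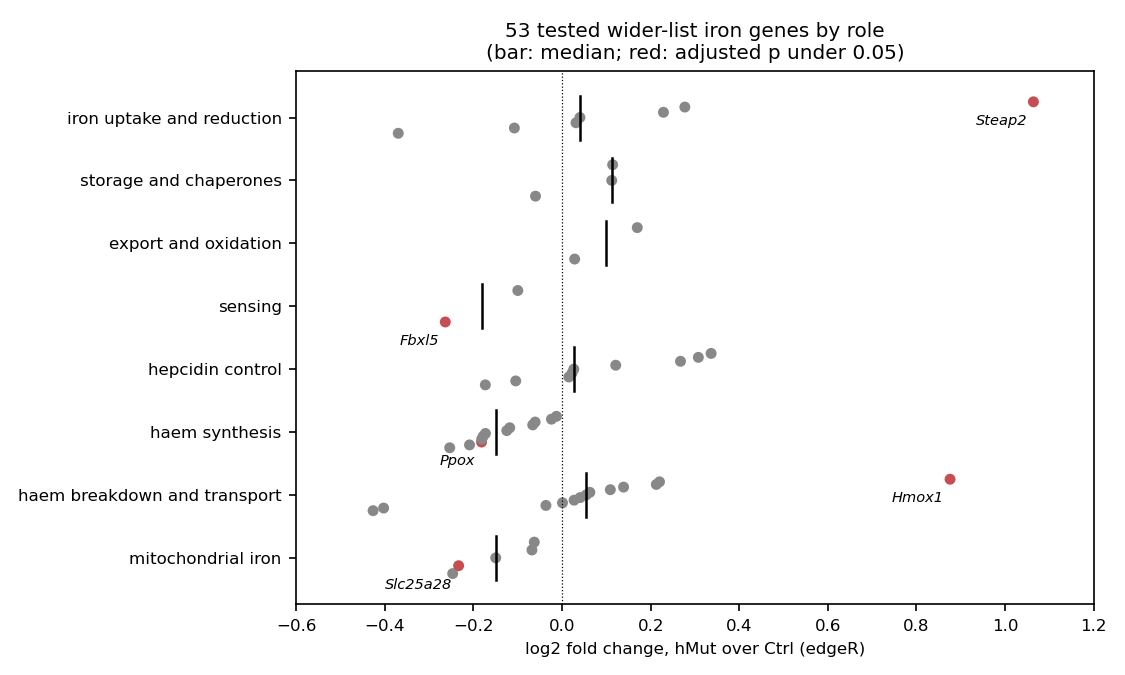
Log2 fold change of hMut over Ctrl from edgeR for the 53 tested genes of the wider iron list, 1 point per gene in rows by role, with the median of each role as a bar and genes past an adjusted p of 0.05 in red. All 12 haem synthesis genes and all 5 mitochondrial iron genes lie below 0, and *Steap2* (1.06) and *Hmox1* (0.88) lie farthest above it.

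Of 13 tested genes of haem breakdown and transport, 1 rose. *Hmox1*, haem oxygenase, which opens haem and frees its iron, lay at 6.54, 6.95 and 10.7 CPM in Ctrl and at 5.75, 11.9 and 23.9 CPM in hMut. The highest hearts were hMut 6 (23.9 CPM) and hMut 9 (23.5 CPM), those with the highest macrophage, fibroblast and atrial marker sums, whose part was not tested, while hMut 2 lay below every Ctrl heart. The log2 fold change was 0.88 (SE 0.227, edgeR adjusted p = 0.0359), and without hMut 6 and hMut 9 it was 0.53 (edgeR adjusted p = 0.0752). The call was also lost in 11 of 17 fits without 1 library (all but Ctrl 3 and hMut 1, 2, 3, 4 and 8), at edgeR adjusted p of 0.055 to 0.073. *Blvrb*, a biliverdin reductase, was at 0.21 (SE 0.07, edgeR adjusted p = 0.0816).

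All 5 mitochondrial iron genes had negative differences, with a median of −0.15 beside 0.00225 over all tested genes, and 1 fell. All 10 cardiomyocyte markers were also negative (median −0.237), and their part in these values was not tested. *Slc25a28* (mitoferrin 2), the importer of iron into mitochondria outside the erythroid line, lay at 19.0, 22.2 and 26.0 CPM in Ctrl and at 17.6, 18.7 and 20.8 CPM in hMut. Its log2 fold change was −0.23 (SE 0.063, edgeR adjusted p = 0.0434), with 6 of 9 hMut hearts below every Ctrl heart. The call was lost in 10 of 17 fits without 1 library (all but Ctrl 5, 6 and 7 and hMut 1, 2, 8 and 9), at edgeR adjusted p of 0.0543 to 0.0834. *Slc25a37* (mitoferrin 1), its erythroid counterpart, was at −0.07 (SE 0.074, 95% interval −0.223 to 0.0869, edgeR adjusted p = 0.572). *Abcb8*, a transporter of the inner membrane, did not pass (−0.25, edgeR adjusted p = 0.11).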

How the data were processed

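RNA was measured in 17 heart libraries, grouped by the depositors' labels, with replicate numbers taken from the library names. The authors selected poly(A) RNA, filtered the reads (fastp), mapped these onto GRCm39 (HISAT2, version 2.2.1) and assigned reads to genes (featureCounts, version 2.0.6). The strand setting and annotation release are not given in the sources used here. The deposited table holds unnormalized raw counts. The authors tested genes with DESeq2 (version 1.42.0), and their results were not used. Counts that the authors assigned to *Hamp* at or under 3 per library were treated as not detectable.

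Genes passing filterByExpr were tested here with edgeR's quasi-likelihood test (version 4.0.16, R 4.3.3), TMM normalization and condition as the only term, with Benjamini-Hochberg adjustment over all 16195 genes and a threshold of 0.05. The test was tried on simulated data. SEs and 95% intervals follow from its F statistics. CPM uses TMM-scaled totals, and log2 CPM a prior count of 2. Total counts were 32915159 to 46486964, and intervals and floors cover counting error or the spread between mice only. Correlations used all pairings of the hearts (Python 3.11.15, scipy 1.17.1). Alternatives were DESeq2 (version 1.42.0), limma-voom with sample weights (limma 3.58.1), RLE and upper-quartile scaling, no filter, no mtDNA-encoded genes, sex as read from *Xist* and Y-linked counts, the replicate number as a block, libraries left out, and, for correlations, a prior count of 0.5.

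The members and lists were chosen with earlier results of these data known. Named are all members, the wider-list genes past the threshold, *Alas2*, *Hmox1*, *Fbxl5*, *Slc25a28* and *Slc25a37*, *Mthfd2*, and for the 3 members with the smallest p the 3 genes most like each. *Pcbp1*, *Smad7*, *Abcb10*, *Fech*, *Blvrb*, *Abcb8*, *Hpx*, *Alb*, *Polg*, *Bmp10* and *Ftl1-ps1* were named after their values were seen. Coordinates are those of the count table (GRCm39). Hairpin positions come from GENCODE vM39.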

Additional observations from a re-analysis of the deposited data

Results flagged for a closer look

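In 34 sets of values, the 10 members and 7 named wider-list genes in each group, 4 had a heart that stood far from the rest of its group by Dixon's criterion, which chance alone meets in about 5% of sets. For *Hamp* these were Ctrl 3, at 4.31 CPM with the next Ctrl heart at 0.311 CPM, and hMut 4, at 1.96 CPM with the next at 0.0825 CPM, the hearts with 9151 and 3870 *Alb* counts. For *Hmox1* it was Ctrl 3, at 10.7 CPM with the next Ctrl heart at 7.98 CPM. For *Alas2* it was hMut 7, at 41.9 CPM with the next hMut heart at 26.9 CPM. hMut 7 also had the highest erythroid marker sum of the hMut hearts (1091 CPM). The rate of about 5% is for normally distributed values and does not hold for *Hamp*, at 0 counts in 10 of 17 libraries.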

How the results depend on the processing

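The count of 749 genes called over the whole table became 1517 with DESeq2 (1010 higher, 507 lower), 2081 with limma-voom (1175 higher, 906 lower), 463 with no filter, 195 with the replicate block and 431 without hMut 6 and hMut 9, and 395 to 1792 when each library was left out. The upper value came without hMut 2 and the lower without hMut 5. The count of 0 members called became 2 with limma-voom and 0 to 1 when each library was left out, the 1 being *Alas1* without hMut 1, and it was 0 in the other fits. The count of 5 wider-list genes became 8 with DESeq2, 10 with limma-voom, 3 with sex as a term, 0 with the replicate block and 2 without hMut 6 and hMut 9, and 2 to 12 when each library was left out, with 12 without hMut 2. The replicate numbers name different mice, and the correlations of same-numbered deviations lay between −0.225 and 0.338, so the numbers do not pair the hearts.

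Signs turned for differences near 0. *Fth1* was −0.00011 with RLE scaling, −0.013 with upper-quartile scaling, −0.0013 with the replicate block and −0.017 without the 4 libraries with the most *Alb* counts, an alternative chosen after seeing the data, and −0.010 to 0.015 when each library was left out. *Slc11a2* was 0.0054 without hMut 6 and hMut 9 and −0.037 to 0.016 when each library was left out. *Tfrc* ranged from −0.037 to 0.24 when each library was left out. *Alas2* was 0.14 with limma-voom, 0.028 with the replicate block, 0.0082 without hMut 6 and hMut 9 and 0.16 without the *Alb* libraries, and −0.23 to 0.19 when each library was left out. The cause of these changes was not tested. The calls of *Steap2* and *Fbxl5* were lost only with the replicate block (edgeR adjusted p = 0.0516 and 0.0534). Those of *Ppox* and *Slc25a28* were also lost with no filter (0.113 and 0.0858) and without hMut 6 and hMut 9 (0.0846 and 0.0546), those of *Ppox* and *Hmox1* with sex as a term (0.055 and 0.06), and that of *Slc25a28* without the *Alb* libraries (0.13). Sex as read from the counts was not balanced, with 3 female and 5 male Ctrl hearts and 2 female and 7 male hMut hearts. The other 6 tested members and the other 6 wider-list genes that were refitted (*Steap2*, *Hmox1*, *Fbxl5*, *Ppox*, *Slc25a28* and *Slc25a37*) kept their direction in all fits. The adjusted Pearson count over 20 relations was 0 with a prior count of 0.5, with RLE scaling and without hMut 6 and hMut 9.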

Other observations

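Relations among the 9 tested members were read within each group, a choice made after seeing the data. Over 36 pairs in each of 2 groups, 10 of 72 correlations of log2 CPM had an unadjusted p under 0.05 in exact permutation tests, and 0 passed adjustment over the 72 for Pearson's r (smallest adjusted p = 0.25) or Spearman's rho. *Slc11a2* and *Alas1* had r = 0.83 in the 9 hMut hearts (exact permutation p = 0.00571, adjusted p = 0.25, rho = 0.82 with exact permutation p = 0.0108), and r = 0.89 without hMut 3 and hMut 8. *Tfrc* and *Slc11a2* had positive r in both groups, at 0.81 in 8 Ctrl hearts (p = 0.025 by exact permutation, 0.25 after adjustment, rho = 0.76 with exact permutation p = 0.0368) and 0.71 in the 9 hMut hearts (exact permutation p = 0.0319, adjusted p = 0.25, rho = 0.63 with exact permutation p = 0.076). Without the hearts farthest from the median of *Tfrc*, Ctrl 5 and 6 or hMut 1 and 8, r was 0.48 in either group.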
